A study of Mus musculus with 12 samples.

Results

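Contacts of the splicing regulator ESRP1 were examined on the transcripts of 7 genes that encode transcription factors of the epidermal lineage: Trp63, Klf4, Klf5, Tfap2a, Tfap2c, Ovol1 and Zfp750. They were chosen by name, out of 21900 protein-coding genes in the GRCm38 annotation, with earlier results of these data known. Each site that fell inside the annotated span of a gene, on that gene's strand, was taken as a site of the gene. The sites come from enhanced crosslinking and immunoprecipitation (eCLIP), in which ultraviolet light links a protein to the RNA it touches and the point where reverse transcription stops marks the contact to the nucleotide. The tissue was back skin epidermis of mouse pups at postnatal day 1, genotype Esrp1FLAG/FLAG, so every library, the inputs included, came from animals whose own ESRP1 carries a FLAG tag. The study has 6 libraries of FLAG immunoprecipitation and 6 of input, from membrane cut between 75 and 140 kDa, and no group without the tag or without ESRP1 is described. The authors' 3 lists of sites were used. Each was called with input on a pooled pair of replicates, replicates 1 and 2 for list 1, 3 and 4 for list 2, and 5 and 6 for list 3.

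ESRP1 is found in epithelial cells, where it binds RNA rich in G and U and steers the choice of alternative exons. Stratified epidermis is built by a small circuit of transcription factors. The p63 protein encoded by Trp63 establishes and keeps the basal keratinocyte state, and its gene is read from an upstream and an internal start site, with alternative 3′ ends. The AP-2 factors encoded by Tfap2a and Tfap2c act early in epidermal specification. Klf5 is active in proliferating epithelial cells, whereas Klf4 drives late differentiation and formation of the skin barrier. Ovol1 encodes a zinc finger repressor that helps cells leave the cell cycle, and the human counterpart of Zfp750 is known as a p63 target in terminal differentiation.

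The lists held 73602, 40014 and 53864 sites of 1 nt each, without read counts, so the depth of the libraries is unknown. Neighbouring sites of the same list were joined when no more than 10 nt lay between their positions, which gave 29037, 24363 and 22840 regions. RNA levels were not part of the data, and in whole epidermis fewer cells of a type and less RNA per cell cannot be told apart. Among general keratinocyte markers, 3 of 10 genes (Krt5, Col17a1 and Dsp) had a region in all 3 lists, while Krt14, Krt1 and Lor had no site on their strand. A region in all 3 lists was present in 0 of 5 melanocyte markers, 0 of 6 dermal fibroblast markers, 1 of 5 immune markers (Csf1r) and 0 of 5 endothelial and muscle markers. Over all protein-coding genes that share was 17.0%. With 5 to 10 genes per marker set, these counts do not tell cell types apart. Because each list pools its replicates, no test between replicates could be made, and all comparisons here are descriptions.

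ESRP1 contacts recurred in Trp63, Klf4, Tfap2a and Tfap2c, were present in part of the lists in Klf5 and Ovol1, and were not listed in Zfp750. A region was counted as found in all 3 lists when sites of each list lay at most 10 nt apart. By this measure 4 of the 7 genes held such a region, against 17.0% of all protein-coding genes. At least 1 site was present in 6 of the 7 genes, against 34.7% of protein-coding genes. Of those 6 genes with a site, 4 had a region in all 3 lists, while 48.8% of all protein-coding genes with a site had one. These counts are based on 7 genes, of which 6 had a site, and the differences from all protein-coding genes were not tested.

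The 7 genes held 74 sites in list 1, 47 in list 2 and 49 in list 3. None of these 170 sites had a counterpart on the opposite strand, where 0 sites were listed in the 7 spans. For Trp63, Klf5, Tfap2c and Ovol1 the strand was itself taken as the one with most sites. Only Klf4 and Tfap2a had a strand from the annotation. The sites marked 116 different nucleotides, of which 17 were marked in each of the 3 lists. Joined over the lists they formed 65 regions. Of these, 9 (13.8%) were found in all 3 lists, 9 in 2 lists and 47 (72.3%) in 1 list. In the whole series 21.1% of 45738 such regions were found in all 3 lists and 57.4% in 1 list. The 7 genes therefore held relatively more regions of a single list than the series did, and these came mainly from Trp63 and Tfap2a.

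**Figure D1:**
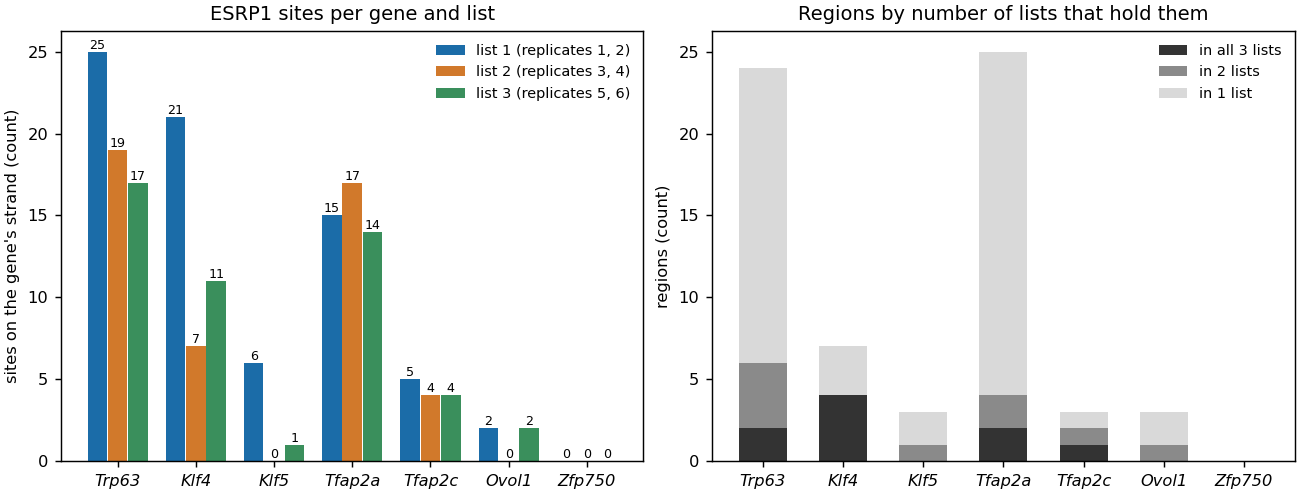
Left, number of ESRP1 sites on the strand of each gene in each of the 3 lists (bars). Right, number of regions per gene, stacked by how many lists hold them. Klf4 has 4 of its 7 regions in all 3 lists, while Trp63 has 2 of 24 and Tfap2a 2 of 25.

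Klf4 was the most densely contacted of the 7 genes. Its span of 5339 nt on chromosome 4 (55527137 to 55532475, minus strand) held 21, 7 and 11 sites in lists 1, 2 and 3. It had 4 regions in all 3 lists, which is 0.749 per kb of span, against 0.0818 in Tfap2a, 0.0772 in Tfap2c and 0.0096 in Trp63. This measure divides by the whole span, and that of Klf4 is the shortest of the 7. Among further epidermal regulators, Cebpa had 2 such regions in a span of 2636 nt and Pou3f1 had 2 in 3010 nt. Among all protein-coding genes, 237 (1.08%) had 4 or more such regions. Of the 5274 genes with a span no longer than that of Klf4, 319 (6.05%) had at least 1 and 9 (0.171%) had at least 4.

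The Klf4 regions were spread from near the 5′ end to near the 3′ end. The first, at 55531973 to 55531985, lay 490 nt into the span, and the second, at 55531288 to 55531297, lay 1178 nt into it. The third, at 55529637 to 55529638, began 2837 nt into the span. The fourth, at 55527732 to 55527737, ended 595 nt before the 3′ end and was the strongest of them. Strength was read from the score that the authors gave each site, whose scale is not stated, as the percentile of a site within its own list. The top site of the fourth region scored 66.2 in list 1, 27.5 in list 2 and 65.2 in list 3, which placed it at percentiles 89.9, 75.8 and 88.2. The third region was the weakest, with top scores of 27.2, 6.51 and 20.4, at percentiles 72.8, 28.7 and 54.3. In lists 2 and 3 each Klf4 site lay in a region of all 3 lists (7 of 7 and 11 of 11 sites), and in list 1 this held for 16 of 21. With only the upper 50% of sites by score, Klf4 had 2 regions in all 3 lists.

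Trp63 is the longest of the 7 genes, and its contacts lay toward its 3′ end in each of the 3 lists. The span on chromosome 16 (25683763 to 25892088, plus strand) covers 208326 nt and held 25, 19 and 17 sites in lists 1, 2 and 3. The first site lay 141537 nt from the 5′ end, so that 67.9% of the span before it held none. Of 942 protein-coding genes with a span at least as long, 333 (35.4%) had a region in all 3 lists and 127 (13.5%) had 2 or more, as Trp63 had.

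Both Trp63 regions found in all 3 lists lay at the far 3′ end. The stronger, at 25889668 to 25889673, ended 2415 nt before the end of the span, with top scores of 75.0 in list 1, 60.2 in list 2 and 111.2 in list 3. The other, at 25891992 to 25892006, ended 82 nt before the end of the span, with top scores of 59.5, 40.4 and 68.1. Averaged over the lists, their top sites stood at percentiles 92.9 and 87.4. A further cluster, 152027 nt from the 5′ end at 25835790 to 25835796, held the highest score of any site in the 7 genes, 190.9 in list 1, and reached 112.2 in list 3. It held no site in list 2 and so was not counted in all 3 lists. A cluster at 25844046 to 25844048 had top scores of 17.9 in list 1 and 27.5 in list 2, and no site in list 3.

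The interior of Trp63 was marked differently in list 2. In the last 3000 nt of the span, a window chosen after the values were seen, list 1 had 18 of its 25 sites, list 2 had 6 of 19 and list 3 had 13 of 17. Outside that window list 1 alone gave 1 region, at percentile 88.2 of its list by top score. List 2 alone gave 10 regions there, at percentile 39.1 or below, and list 3 alone gave 3, at percentile 51.4 or below. Without list 2, Trp63 had 4 regions in both other lists, and without list 3 it also had 4.

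**Figure D2:**
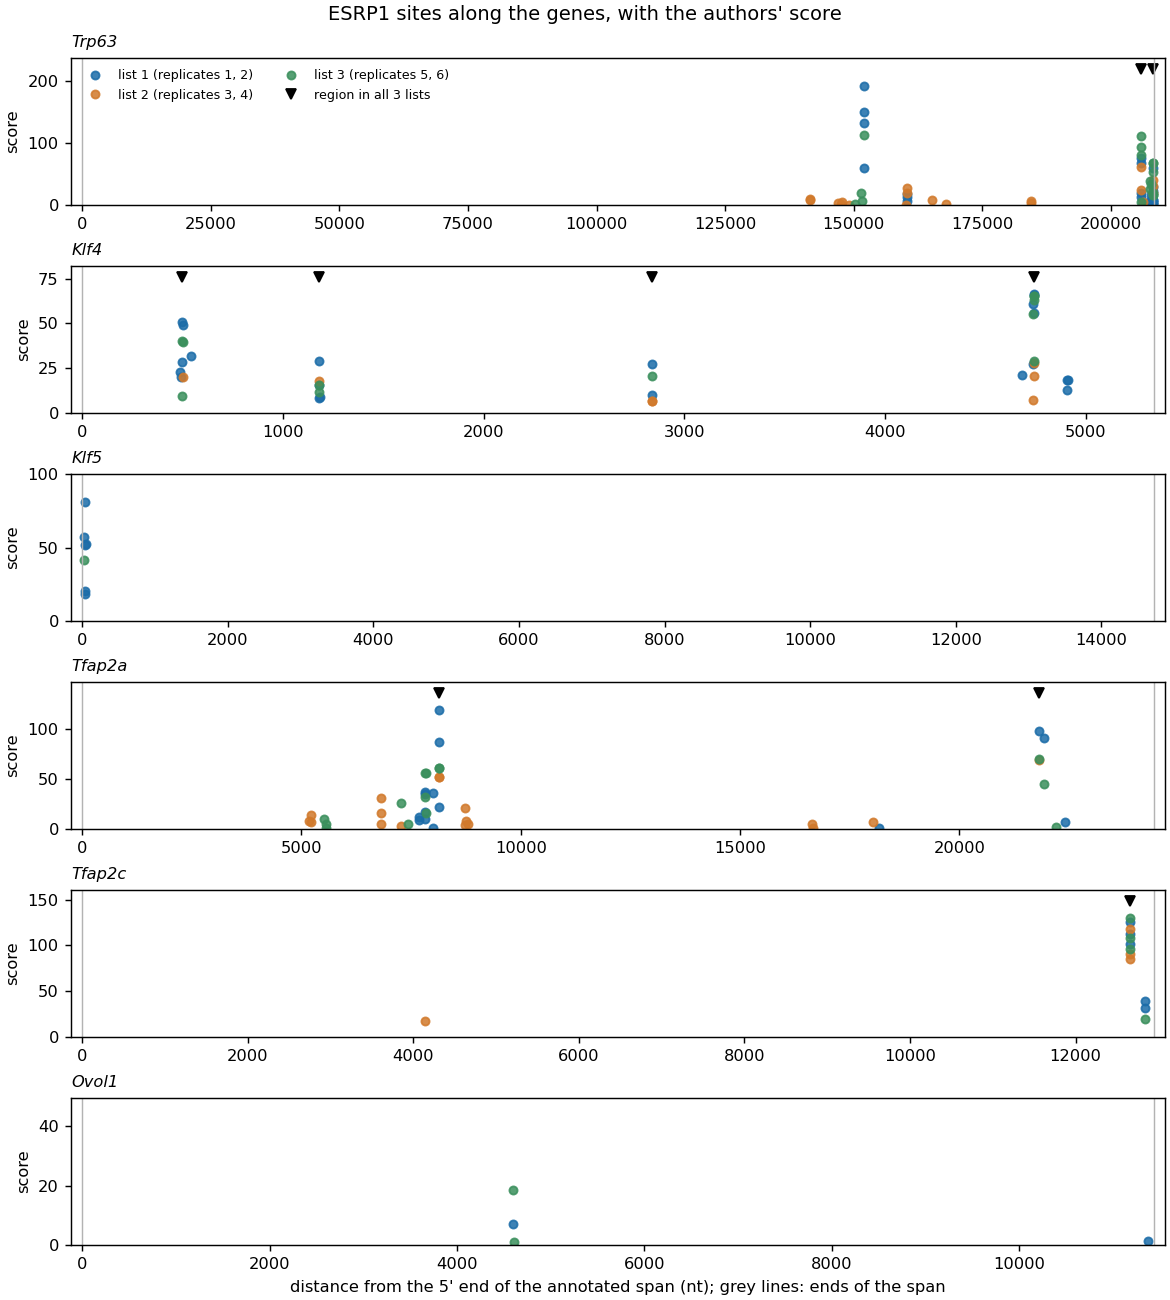
ESRP1 sites along the 6 genes that held any, with distance from the 5′ end of the annotated span in nt on the horizontal axis and the authors' score on the vertical axis. Colours mark the lists and triangles mark regions found in all 3 lists. The Klf4 regions run along the gene, while the Trp63 and Tfap2c regions lie at the 3′ end and the Klf5 sites at the 5′ end.

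The AP-2 genes showed contacts of different layout. Tfap2a, on chromosome 13 (40713802 to 40738238, minus strand), held 15, 17 and 14 sites in lists 1, 2 and 3. It had a region of 3 nt at 40730103 to 40730105, with top scores of 119.2 in list 1, 52.4 in list 2 and 61.2 in list 3. Its other region was the single nucleotide 40716426, 2624 nt before the 3′ end, which scored 98.1, 69.3 and 69.9. The region of 3 nt lay 8133 nt into the span. RefSeq start sites of Tfap2a lie at 40733795 and 40734920, and 0 sites fell in the promoter windows around them (250 nt before to 50 nt after). The closest site downstream of a start site lay 730 nt from it.

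Most Tfap2a contacts did not recur, and without list 2 the gene had 4 regions in both other lists. Of its 25 regions, 21 belonged to 1 list only, with 4 in list 1, 11 in list 2 and 6 in list 3. In list 2, 14 of 17 Tfap2a sites (82.4%, 95% exact Clopper-Pearson interval 56.6 to 96.2) lay in regions of that list alone. Over the whole of list 2 that share was 26.8% (26.4 to 27.3). The same held for 6 of 15 Tfap2a sites in list 1 (interval 16.3% to 67.7%) and for 8 of 14 in list 3 (57.1%, 28.9 to 82.3). A high share in list 2 was not particular to Tfap2a. In Trp63, 18 of 24 regions belonged to 1 list only. Regions of list 2 alone held 11 of its 19 sites in that list (57.9%, 33.5 to 79.7). The Trp63 counts were 4 of 25 sites in list 1 and 5 of 17 in list 3. In Klf4 they were 5 of 21, 0 of 7 and 0 of 11 in lists 1, 2 and 3. For all 7 genes the share was 55.3% in list 2 (40.1 to 69.8), 28.4% in list 1 (18.5 to 40.1) and 28.6% in list 3 (16.6 to 43.3). Whole lists 1 and 3 had 22.6% and 18.3%. The intervals cover counting error only, and neighbouring sites of a gene are not independent. They are therefore too narrow to serve as a test, and the differences from the whole lists were not tested. The long noncoding RNA gene Gm26688 overlaps Tfap2a on the plus strand, and 0 sites were listed on that strand in its span.

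Of the 9 regions found in all 3 lists, that of Tfap2c had the highest mean percentile. Its span on chromosome 2 (172545678 to 172558622, plus strand) had only 5, 4 and 4 sites, of which 3 in each list fell on the same 3 adjacent nucleotides, 172558331 to 172558333, 289 nt before the 3′ end. The middle nucleotide scored highest in each list, with 125.4 in list 1, 118.4 in list 2 and 129.6 in list 3. Its mean percentile was 97.0, a level that 94.9% of all 9649 regions found in all 3 lists did not exceed. A second cluster, at 172558514 to 172558518 and 104 nt before the 3′ end, was present in lists 1 and 3 with top scores of 39.1 and 19.8 and had no site in list 2. Without list 2, Tfap2c had 2 regions in both other lists. The other site of the gene was in list 2 alone, 4140 nt from the 5′ end.

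**Figure D3:**
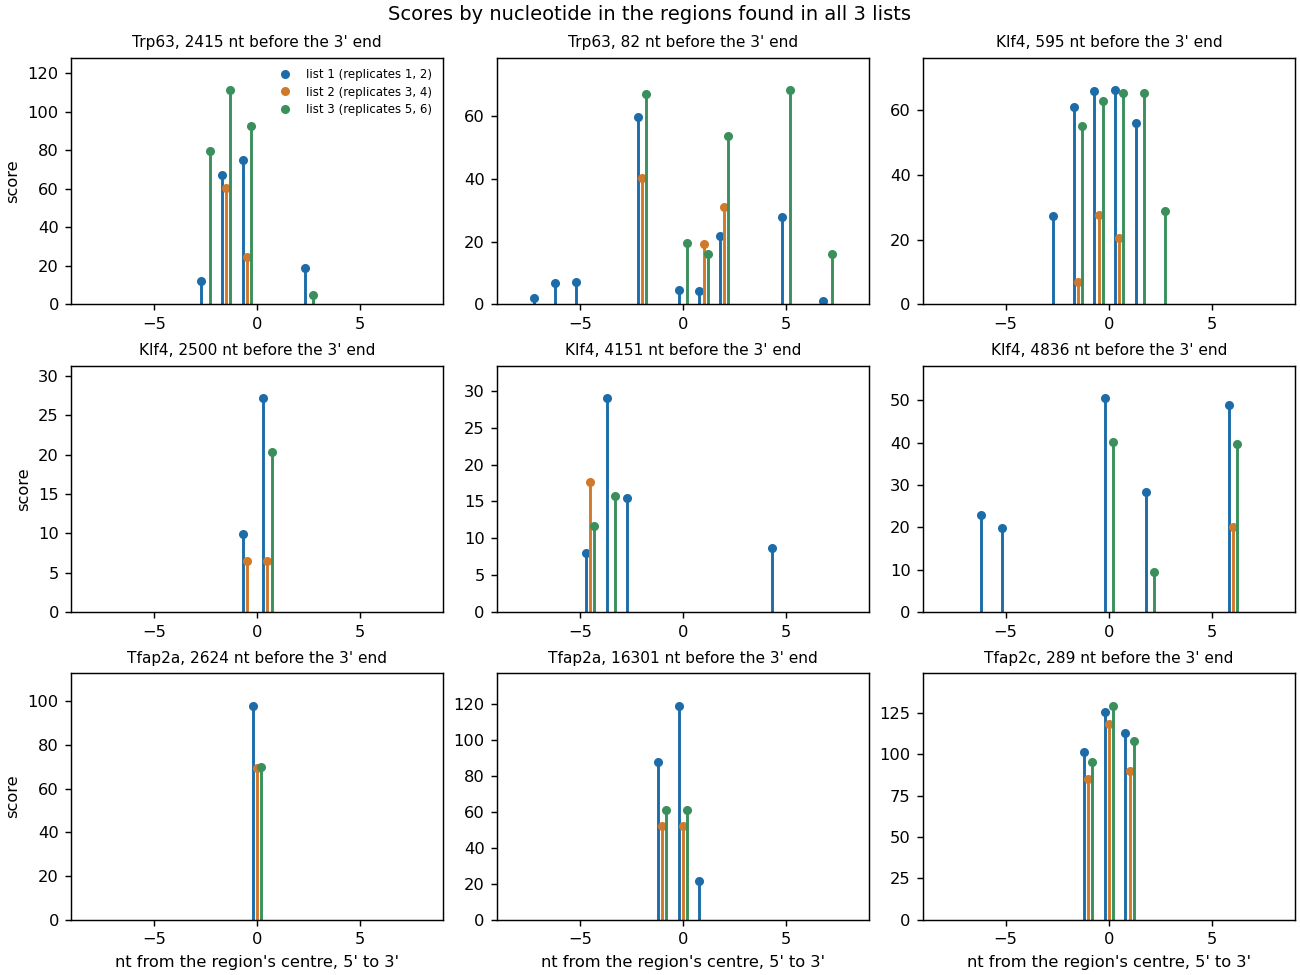
Scores by nucleotide in the 9 regions found in all 3 lists, 5′ to 3′, with distance from the centre of the region in nt on the horizontal axis and the authors' score on the vertical axis (scales differ between panels). Colours mark the lists, shifted slightly sideways so that equal positions can be seen. In Tfap2c the 3 lists mark the same 3 nucleotides, whereas the top score of list 2 lies below those of lists 1 and 3 in 3 of the 4 Klf4 regions.

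The 9 regions found in all 3 lists were near those of the series in width and precision. Their median length was 6 nt (1 to 15), against 8 nt over all 9649 such regions of the series. In each of the 9 at least 1 nucleotide was marked in all 3 lists, compared with 82.3% of all such regions (exact Clopper-Pearson interval 81.5 to 83.1; for the 9 regions 66.4 to 100%). The highest scoring nucleotide was the same in all 3 lists in 4 of 9 regions, ties included (44.4%, interval 13.7 to 78.8), against 37.9% of all. The median of the mean percentile of the top site was 87.4 over the 9 regions, ranging from 52.0 to 97.0, and 75.3 over all regions. By position, 3 of the 9 lay in the last 1000 nt of their gene (33.3%, interval 7.49 to 70.1), in Trp63, Klf4 and Tfap2c. Over protein-coding genes of at least 4000 nt, 20.03% of regions lay there (19.0 to 21.1), a value inside the interval of the 9. The window covers unlike parts of the spans. Evenly spread regions would put 10.2% in it for the 7 genes and 4.18% for all such genes. In the first 1000 nt lay 1 of the 9, in Klf4, and 9.01% of the regions of all such genes.

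Klf5 had contacts at both edges of its annotation. Inside the span on chromosome 14 (99298691 to 99313412, plus strand) list 1 had 6 sites, list 2 had 0 and list 3 had 1. Those sites lay 28 to 58 nt from the 5′ end, at 99298719 to 99298749, and the nucleotide 99298719 was marked in list 1 with a score of 57.4 and in list 3 with 41.5. No region in the span was therefore found in all 3 lists. Just outside it, 205 to 219 nt past the annotated 3′ end and on the same strand, a cluster at 99313617 to 99313631 held 8 sites in list 1, 5 in list 2 and 7 in list 3. Its top scores were 110.5, 66.6 and 109.8, at percentiles 95.6, 92.6 and 95.7, and 5 nucleotides were marked in all 3 lists. No annotated gene covers it, and the next one, the pseudogene Gm22984, begins 38637 nt past the end of Klf5. Among 15426 protein-coding genes with an assigned strand and no region of all 3 lists in their span, 36 (0.233%) had such a region, under no annotated gene, within 1000 nt past the end. Unlike Klf5, many of these genes have no site in their span, and the share among genes with a site was not computed. The strand of Klf5 was itself taken from its sites.

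**Figure D4:**
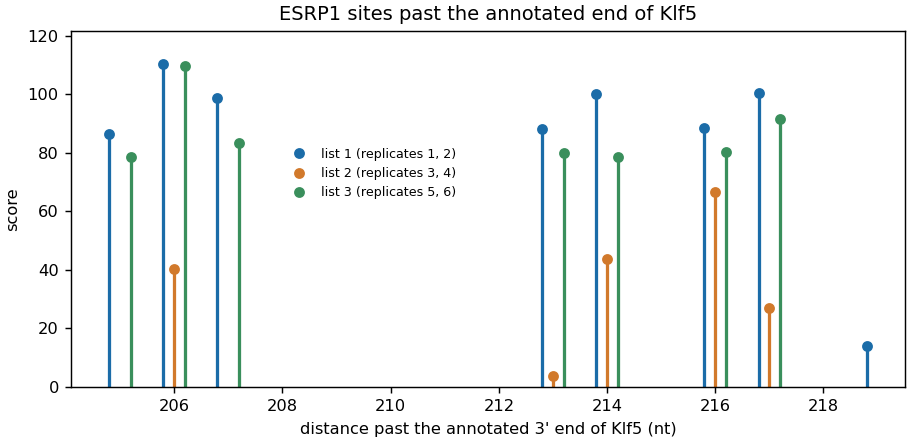
Sites past the annotated 3′ end of Klf5, with distance past the end in nt on the horizontal axis and the authors' score on the vertical axis, coloured by list. The sites lie 205 to 219 nt past the end, and 5 nucleotides carry a site of each list.

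Ovol1 and Zfp750 showed the fewest contacts. Ovol1, on chromosome 19 (5549137 to 5560575, minus strand), had 2 sites in list 1, 0 in list 2 and 2 in list 3. A single nucleotide, 5555974, was shared by lists 1 and 3, with scores of 6.91 and 18.6 at percentiles 36.0 and 51.4. The others scored 1.13 and 1.07. Zfp750, on chromosome 11 (121510976 to 121519342), had 0 sites on either strand in each list. It lies within the span of Tbcd, a gene on the plus strand in which 1 site was listed in all. Of the flanks of 5000 nt on each side of the 7 genes, those of Klf5 alone held a region of all 3 lists on the gene's strand. Without list 2, in which Klf5 and Ovol1 have 0 sites, 6 of the 7 genes had a region in both remaining lists. Klf5 and Ovol1 had 1 each. The share of protein-coding genes was 20.8% under this looser rule. Without list 1 or without list 3 the number stayed at 4 of the 7, against 18.2% and 20.9% of protein-coding genes.

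Contacts were also present in many other regulators of the epidermis. From a list of 50 further genes, 23 (46.0%) had a region in all 3 lists, against 17.0% of all protein-coding genes. A site was present in 35 of the 50, against 34.7% of all protein-coding genes. Of those 35 genes with a site, 23 had a region in all 3 lists, against 48.8% of all protein-coding genes with a site. The median over the 50 genes was 0 regions per gene, as over all protein-coding genes. Most regions were present in Grhl1, a grainyhead factor of the epidermal barrier, and in Rxra, a nuclear receptor, with 7 each. Grhl1 held 50, 23 and 32 sites in lists 1, 2 and 3 and Rxra 37, 28 and 30. Fosl2, an AP-1 subunit gene, and Klf3 had 3 regions each. Their sites numbered 9, 10 and 14 in Fosl2 and 13, 9 and 11 in Klf3.

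Of the remaining genes on that list, 2 regions each were present in Hopx, Klf6, Prdm1, Cebpa, Pou2f3, Barx2, Pou3f1, Ppard and Satb1. Hopx held 17, 13 and 13 sites in lists 1, 2 and 3, Klf6 22, 9 and 9, and Prdm1, which encodes the repressor Blimp1, 18, 5 and 17. Cebpa held 15, 4 and 14, Pou2f3 12, 6 and 7, and Barx2 9, 3 and 12. A single region was found in Smarca4, Junb, Grhl2, Jun, Gata3, Grhl3, Ezh2, Maf and Dlx5, among others. Among close relatives of the 7 genes, Klf3 and Klf6 had the regions given above, while Tfap2b had 0, 1 and 3 sites, Tfap2e 1, 0 and 0, Klf7 1, 1 and 2, and Klf2, Ovol2 and Trp73 had none. Among 10 transcription factors of mesenchymal cells, 4 had a region in all 3 lists, with 1 each in Zeb1, Zeb2, Tcf4 and Twist1. A site was present in 5 of the 10. Over all protein-coding genes, 17.0% had a region in all 3 lists and 34.7% had a site. A share above that of all protein-coding genes was therefore not particular to the epidermal regulators. No test of the difference between the epidermal and the mesenchymal genes was made.

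**Figure D5:**
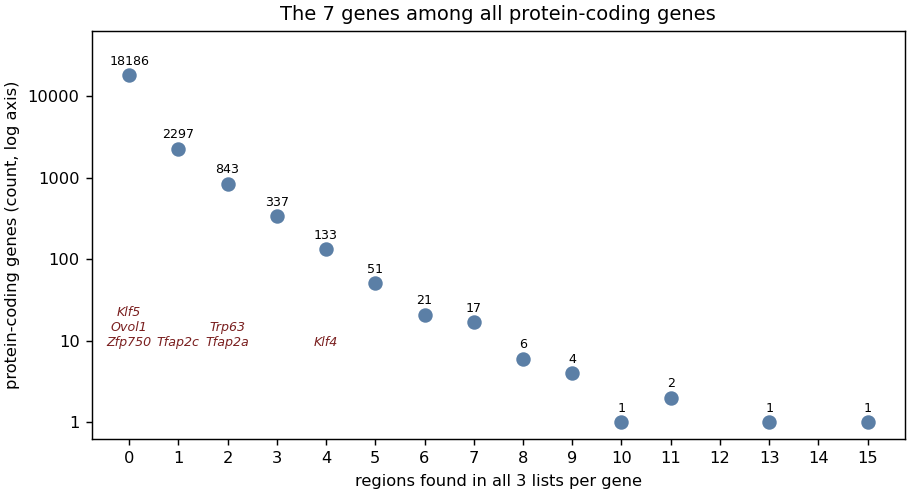
Number of protein-coding genes (log axis) by the number of regions found in all 3 lists per gene, with the 7 genes written at their own number. Klf4 stands at 4 regions with 133 genes at that number, and Klf5, Ovol1 and Zfp750 stand at 0 with 18186 genes.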

How the data were processed

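The authors called sites on 2 pooled replicates with their input, per the file headers. Each line of the 3 deposited lists gives a nucleotide, a strand and a score, the authors' value, used here as a percentile within its list. The submitters' processing notes list the tools HOMER, HISAT2 2.1.0 and cutadapt 1.16, and mm10 and GRCm38 as builds. For calling settings, PCR duplicates and reads with several alignments, which decide which sites are listed, no treatment is stated in the sources used here.

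Spans came from RefSeq on GRCm38.p6, with 1-based coordinates. A strand came from the RefSeq promoter table for 17492 protein-coding genes (Klf4 and Tfap2a among the 7). For others it was the strand with most sites, which equalled the table's strand in 89.6% of 3202 genes that had both and at least 10 sites. A region was assigned by its middle. No genome or exon annotation was used, so motifs, exons and sequences are not reported. The members and lists were chosen with earlier results of these data known. From the regulator list the text names members that held a region in all 3 lists, with sites per list for the first 10, and 1 is not reported here. Counts were checked on simulated lists. Python 3.11.15, pandas 2.3.3 and SciPy 1.17.1 were used. The alternatives were other distances, scores, strands and left-out lists.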

Additional observations from a re-analysis of the deposited data

Results flagged for a closer look

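A signal lay in sites that the counts per gene do not use. The cluster 205 to 219 nt past the annotated end of Klf5 held 8 sites in list 1, 5 in list 2 and 7 in list 3, each above the 3 sites set as a minimum, while no region within the Klf5 span was found in all 3 lists. Whether this RNA belongs to the Klf5 transcript was not tested.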

How the results depend on the processing

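The number of the 7 genes with a region in all 3 lists was 4 under each alternative distance. The share over all protein-coding genes was then 17.0% to 17.6%. The number was also 4 when only sites above each list's median score (the upper 50%) were kept, against 12.1% of protein-coding genes. On either strand it stayed at 4 by construction, since the 7 spans held 0 sites on the opposite strand. The number was 4 to 6 when 1 list was left out, against 18.2% to 20.9% of protein-coding genes. It was 5 when regions up to 1000 nt past the gene end were counted, a setting chosen after seeing the data. The share of all protein-coding genes under that setting was not computed, so this 5 has no background beside it. The regions of the 7 genes numbered 9, against 9 to 16 when 1 list was left out. Leaving out a list asks only for a region in both remaining lists, a looser rule that tends to raise the counts. The value of 16 came without list 2, with 4 each in Trp63, Klf4 and Tfap2a. Joining sites at most 1 nt apart gives the main regions by construction. Keeping that upper 50% removes the lower-scoring sites of each list by design. The sites of the 7 genes fell from 74 to 52 in list 1, from 47 to 21 in list 2 and from 49 to 34 in list 3, and the regions to 7. Before that cut, their median percentile was 66.8 in list 1, 32.5 in list 2 and 71.2 in list 3. Why it was lower in list 2 was not tested. Over all protein-coding genes the count with a region in all 3 lists was 2640 to 4587, against 3714. No paired analysis was possible because each list pools 2 replicates with their inputs. The planned motif search was not run, since no sequence of the sites was used. The lists carry no read counts, so a gene without sites cannot be told apart from a gene with few reads.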
